A study of Mus musculus with 5 samples.

Results

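The 10 integrin chain genes described here are Itgae, Itgb7, Itga4, Itgal, Itgb1, Itgb2, Itgav, Itgb3, Itga1 and Itga2, out of 27726 genes common to 5 single-cell RNA libraries of mouse lung group 2 innate lymphoid cells (ILC2s). They were taken as a list by gene symbol, and all 10 were detected. Itgae was put at the head of the list because it was chosen by its readout: it had the lowest p-value in the comparison of cytokine-activated with non-activated cells and a similar ratio in both weeks, so its values in that comparison are a description and are given without a test. The same holds for the other 9 genes in that comparison.

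The cells came from young, female, wild-type C57BL/6 mice, with the lungs of 5 mice pooled in each library. They were enriched by negative selection and sorted as lineage-negative CD45+ cells bearing Thy1.2, CD127 and ST2, the receptor of IL-33. The 1 naïve library came from mice without a tumour. The 2 ta-non-activated libraries (tumour-associated, weeks 2 and 3) held fresh cells of mice that carried TC1 lung tumour cells, a line transformed with HPV oncogenes and Ras, under the skin of the flank. The 2 ta-activated libraries held cells from such mice, also of weeks 2 and 3, that had spent a week in culture with IL-33, TSLP and rhIL-2. The tumour therefore lay outside the organ that was sampled, the mice within a library cannot be told apart, and culture and cytokines cannot be told apart from each other. Each group of tumour-bearing mice has 1 library per week, and the weeks serve as its replicates.

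Integrins are receptors made of 1 alpha and 1 beta chain, which join a cell to other cells or to the extracellular matrix. The alpha chain αE (Itgae, also called CD103) pairs with β7 (Itgb7) alone and binds E-cadherin on epithelium. The chain α4 pairs with β7 or β1 and binds MAdCAM-1, VCAM-1 and fibronectin, and αL with β2 forms LFA-1, which binds the ICAMs. The chain αv pairs with β3, β1 and others and binds matrix proteins and latent TGF-β, whereas α1 and α2 pair with β1 as collagen receptors. In tissue lymphocytes αE is a familiar mark of residence at epithelium, and TGF-β is a known inducer of its gene.

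A barcode was kept as a cell if it had 200 or more genes and less than 5% of its counts from mitochondrial genes, which held for 16530 of 18628, with 1601 to 6389 cells and 9394957 to 61830293 counts (unique molecular identifiers, UMIs) per library. Between 1 and 8 barcodes were shared by any pair of libraries. A level is the UMIs of a gene per 1000000 UMIs of all cells of a library (CPM), with an exact Poisson 95% interval that covers counting error only. In such sums, fewer cells of a type and less RNA of a gene per cell cannot be told apart. CPM values are not corrected for the length of a gene, so levels are compared between libraries and not between genes.

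The libraries labelled ta-non-activated stood apart from each other. In week 3, 712 of the 1601 kept cells (44.5%) lay in 1 cluster with early thymocyte genes, and 5 of the 6 early thymocyte markers reached 20 CPM there, with a summed level of 1259 CPM against 0.451 to 42.8 CPM in the other 4 libraries. In that library the summed level of the T cell markers was 7025 CPM against 448 to 1566 CPM elsewhere. The 14 ILC2 markers summed to 1819 CPM there and to 11895 CPM in week 2, but without the cytokine genes Il5 and Il13 the sums were 1750 and 1810 CPM, beside 8619 CPM in the naïve and 4931 and 4173 CPM in the ta-activated libraries. Of the 14, 7 were higher in week 3 than in week 2, the IL-33 receptor gene Il1rl1 and Il7r and Thy1 of the sort among them. The other 7 were lower in week 3: Gata3 (189 against 336 CPM), Icos (121 against 350 CPM), Il2ra, Areg, Ptgdr2, Il5 and Il13. Ptgdr2 had 0 UMIs in week 3 and at most 5 in the other fresh libraries. In week 2 the library labelled ta-non-activated had Il13 at 8861 CPM, above both ta-activated libraries (3501 and 4318 CPM) and above the other fresh libraries (19.6 and 55.6 CPM), and 38.8% of its cells were in a proliferating cluster. The naïve matrix names a later version of the counting software in its header (6.0.0 against 3.0.2). Over 6592 genes in week 2 and 6725 in week 3, the log2 ratio of naïve to ta-non-activated CPM was higher in genes with longer introns, with Spearman correlations across genes of 0.58 and 0.60; genes are not independent replicates. Members are therefore given over all kept cells and again in clusters 0 and 1, the 2 largest clusters of the integrated cells, which were ILC2-like by their markers in all 5 libraries. These clusters held 5238 naïve cells, 1066 and 656 ta-non-activated cells, and 1618 and 2502 ta-activated cells (week 2, then week 3). Depth differed between libraries there. Median UMIs in clusters 0 and 1 were 2576 and 3184 in fresh week 3 cells and 11942 and 14284.5 in fresh week 2 cells. They were 11572 and 11342.5 in ta-activated week 3 cells. A CPM ratio against fresh week 3 cells therefore need not match the ratio of UMIs per cell.

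Itgae (ENSMUSG00000005947) is on chr11:73090583-73147446, plus strand, in GRCm38. Its level was 13.4 CPM [12.1 to 14.7] in the naïve library, 3.76 CPM [3.13 to 4.48] and 3.41 CPM [2.33 to 4.81] in the ta-non-activated libraries of weeks 2 and 3, and 74.9 CPM [72.7 to 77.2] and 72.7 CPM [70.6 to 74.8] in the ta-activated libraries. These levels rest on 433, 125, 32, 4298 and 4493 UMIs. Both ta-activated libraries were above all 3 fresh ones, and within each group the weeks lay close together: 73.8 ± 1.61 CPM against 3.58 ± 0.251 CPM (SD, n = 2 each). The ratio of ta-activated to ta-non-activated was 19.9-fold [16.7 to 24.0] in week 2 and 21.3-fold [15.1 to 31.2] in week 3. Against the naïve library the ta-activated levels were 5.61-fold and 5.44-fold higher, and the ta-non-activated levels 3.55-fold and 3.92-fold lower.

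Haspin, a kinase gene with no intron of its own, lies inside an intron of Itgae on the opposite strand, with no exon in common. Its level was 2.99 CPM in the naïve library, 8.37 and 4.15 CPM in the ta-non-activated pair, and 19.0 and 16.3 CPM in the ta-activated libraries. Haspin was thus higher in activated cells too, by 2.27-fold and 3.92-fold, which is less than the ratio of Itgae in both weeks.

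**Figure D1:**
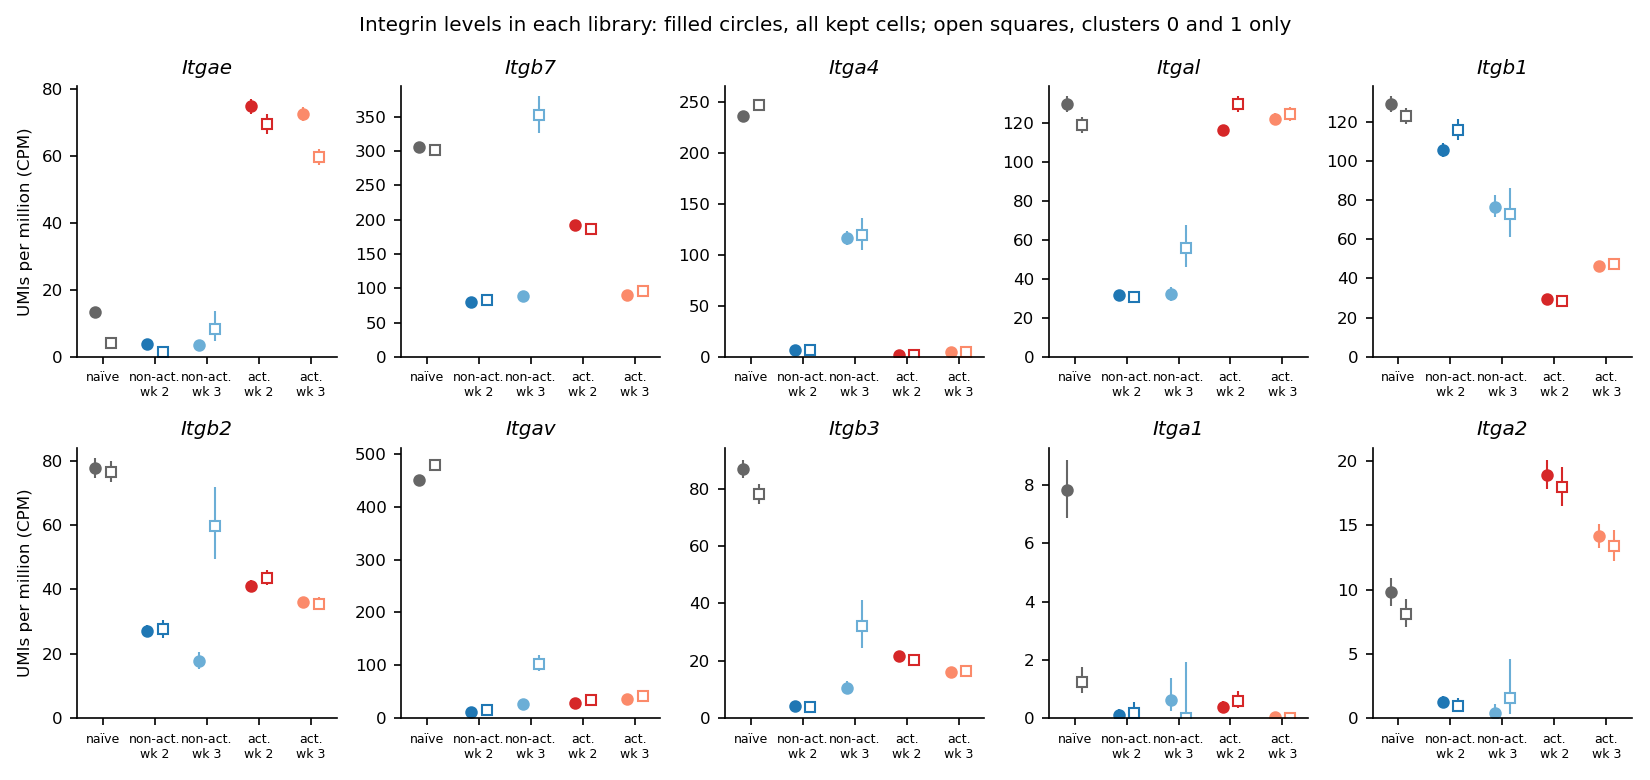
Level of each of the 10 integrin genes in the 5 libraries, in CPM on the y axis of each panel, with filled circles for all kept cells, open squares for clusters 0 and 1 alone, and bars for exact Poisson 95% intervals. Itgae sits at 74.9 and 72.7 CPM in the ta-activated libraries and at 13.4 CPM or below in the fresh ones, whereas Itgav and Itga4 are highest in the naïve library, at 450 and 237 CPM.

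Counted in clusters 0 and 1 alone, Itgae was at 4.07 CPM in the naïve library, 1.41 and 8.39 CPM in the ta-non-activated pair, and 69.7 and 59.7 CPM in the ta-activated libraries. The level was higher after activation in both weeks, by ratios that differed between them: 49.3-fold [32.5 to 78.9] in week 2 and 7.11-fold [4.37 to 12.5] in week 3. The week 3 value rests on 16 UMIs in the fresh cells. ILC2-like clusters at a finer resolution of 0.4 had 6 UMIs at 3.30 CPM, with ratios of 45.1-fold in week 2 and 21.8-fold in week 3, and libraries merged without integration gave 8.60 CPM. Against the naïve library, Itgae in clusters 0 and 1 was 2.88-fold lower in week 2 and 2.06-fold higher [1.14 to 3.51] in week 3. The week 3 direction depended on which cells were counted. Itgae was 1.08-fold lower in ILC2-like clusters at resolution 0.4 (3.30 against 3.58 CPM, 6 UMIs). In ILC2-like or proliferating clusters it was 1.22-fold lower (3.99 against 4.89 CPM). The proliferating cluster of the fresh week 3 library, with 153 cells, held 1 Itgae UMI at 0.425 CPM. That cluster had 6 of the 14 ILC2 markers at 20 CPM or more, as had the early thymocyte-like cluster. Clusters 0 and 1 of the library had 12 and 13.

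Itgae was unevenly spread over the clusters of the naïve library. Cluster 3 there, 452 cells that were type 17 lymphocyte-like with Il23r (the IL-23 receptor) at 584 CPM, held 278 of the 433 Itgae UMIs and had Itgae at 106 CPM [94.2 to 120]. These cells also had 6 of the 12 T cell markers raised at least 2-fold over the rest of their library. The ILC2-like clusters 0 and 1 had 3.64 and 4.55 CPM, the proliferating cluster 25.7 CPM, and the NK or ILC1-like cluster 10.9 CPM. The level of the whole naïve library was therefore carried for the larger part by a cluster with 7.07% of its cells.

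The fresh libraries of tumour-bearing mice had few Itgae UMIs in any cluster. In week 2 the proliferating cluster held 86 of the 125 UMIs at 5.03 CPM, clusters 0 and 1 had 0.546 and 2.19 CPM, and 20 T cell-like cells held 16 UMIs, or 102 CPM [58.5 to 166]. In week 3 the early thymocyte-like cluster 4 held 10 of the 32 UMIs at 2.05 CPM, cluster 0 had 3 UMIs at 3.10 CPM and cluster 1 had 13 UMIs at 13.9 CPM [7.37 to 23.7]. Cluster 3 of week 3, 37 cells that were type 17 lymphocyte-like, had 4 UMIs at 33.1 CPM.

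In the ta-activated libraries Itgae was found in every main cluster. Clusters 0, 1 and 2 had 74.6, 61.8 and 65.1 CPM in week 2 and 59.0, 60.4 and 73.3 CPM in week 3. Cluster 3, which was ILC2-like there, had 163 CPM [150 to 177] and 174 CPM [163 to 187], above the other ILC2-like clusters of both libraries. Its week 2 cells had 3 of the 12 T cell markers raised at least 2-fold over the rest of their library, and its week 3 cells had 0. That cluster also had the interferon-induced gene Ifit1 at 1165 and 1872 CPM. The clusters were built from the expression of these same cells, so these differences are a description.

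**Figure D2:**
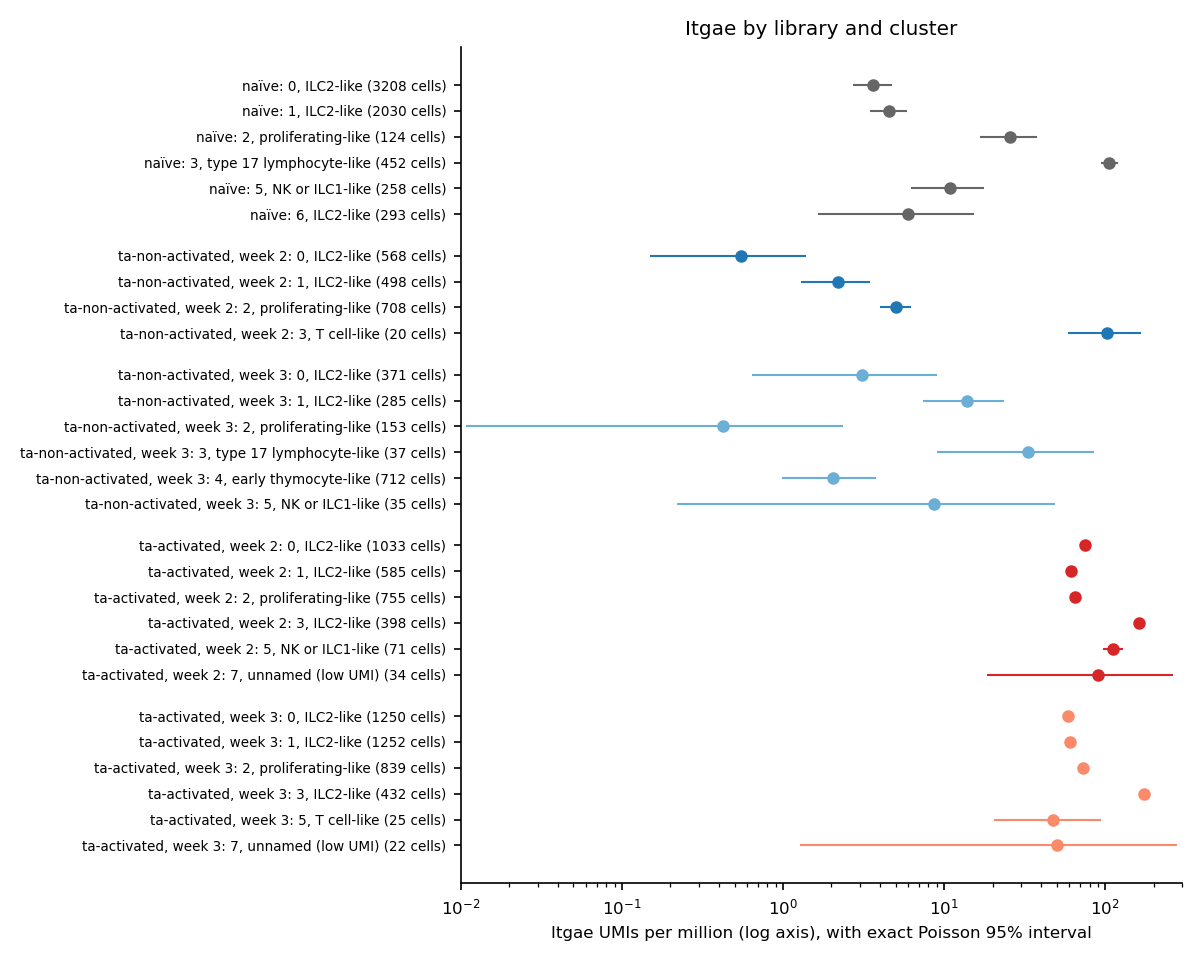
Itgae in each cluster of each library, in CPM on a log axis, with bars for exact Poisson 95% intervals. In the ta-activated libraries all clusters lie between 47.6 and 174 CPM, whereas in the naïve library cluster 3 (106 CPM) stands above the ILC2-like clusters 0 and 1 (3.64 and 4.55 CPM).

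Shares of cells with an Itgae UMI were compared after each cell had been thinned to 2000 UMIs, which left out 14 to 242 shallower cells per library. The share was 1.95% of 6147 naïve cells, 0.719% and 0.736% of the ta-non-activated cells, and 15.6% [14.2 to 16.9] and 14.5% [13.3 to 15.6] of the ta-activated cells (exact Clopper-Pearson 95% intervals, counting error only). Without thinning the shares were 4.15%, 3.68%, 1.75%, 53.0% and 43.4%. Both ta-activated shares lay above all 3 fresh shares. For comparison, 1 of 92 endothelial-like naïve cells had an Itgae UMI (1.09%, interval 0.0275 to 5.91). These cells had a median of 4527 UMIs against 4517 in the naïve library as a whole, and they carried Gata3 at 651 CPM (780 CPM in the whole naïve library) and Ptprc at 524 CPM, so they held lymphocyte RNA and set no background level for the integrins. No share of free RNA was measured for these libraries.

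Unthinned, 1533 ta-activated cells of week 2 had Itgae, 957 of them with at least 2 UMIs and 243 with at least 5, and the highest cell had 27. In week 3 the numbers were 1657, 1070 and 255, with a highest cell of 19. The higher level was therefore spread over many cells of both libraries and was not held by a few cells with very high counts.

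**Figure D3:**
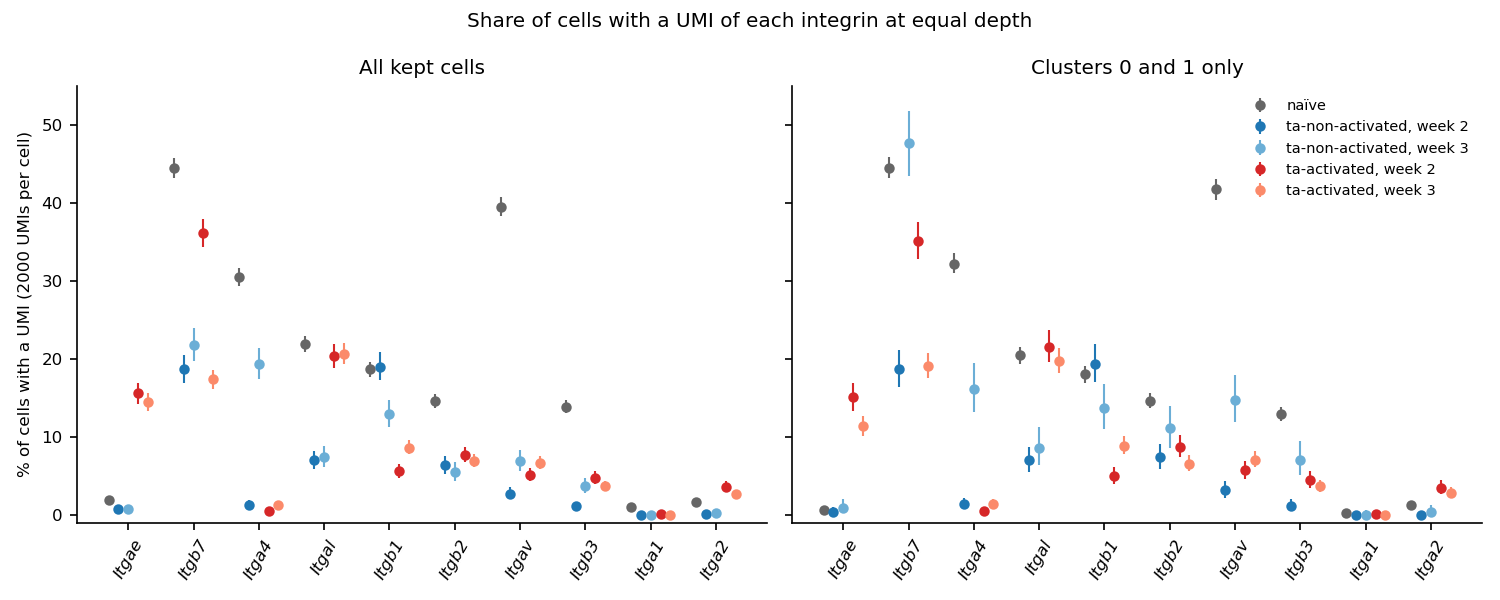
Percentage of cells with at least 1 UMI of each integrin gene at 2000 UMIs per cell, by library, for all kept cells and for clusters 0 and 1 alone, with Clopper-Pearson 95% intervals. Itgae goes from 0.719% and 0.736% in ta-non-activated to 15.6% and 14.5% in ta-activated cells, while Itga4 is at 1.27% or below in both ta-activated libraries and at 30.5% in the naïve one.

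Itgb7 (ENSMUSG00000001281, chr15:102215995-102231944, minus strand), the only beta chain that αE pairs with, did not follow Itgae. Its level was 306 CPM in the naïve library, 79.7 and 88.9 CPM in the ta-non-activated pair, and 193 and 90.6 CPM in the ta-activated libraries. The ta-activated libraries differed from each other by 2.13-fold, with the lower one close to both ta-non-activated libraries. The ratio to ta-non-activated was 2.42-fold in week 2 and 1.02-fold [0.948 to 1.10] in week 3. Over 2 libraries each the levels were 142 ± 72.2 and 84.3 ± 6.52 CPM (SD), so the difference between the groups was smaller than the spread between the ta-activated libraries.

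The week 3 value of Itgb7 changed with the cells counted. Its level within clusters 0 and 1 was 302 CPM in the naïve library, 82.2 and 352 CPM in the ta-non-activated pair, and 186 and 96.4 CPM in the ta-activated ones. There the CPM of Itgb7 was 2.27-fold higher with activation in week 2 and 3.65-fold lower in week 3. In week 3 these were 671 UMIs in 656 fresh cells and 3634 UMIs in 2502 deeper ta-activated cells. Itgb7 UMIs per cell were therefore higher after activation, while their share of all UMIs was lower. In the ta-non-activated library of week 3 the early thymocyte-like cluster had Itgb7 at 5.73 CPM and clusters 0 and 1 had 430 and 272 CPM, so the sum over all cells of that library mixes both. Clusters 0 and 1 of the naïve and week 3 fresh cells were both high, and those of the week 2 fresh cells were low.

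Among ta-activated cells of clusters 0 and 1 at 2000 UMIs, Itgb7 was found in 43.5% [37.1 to 50.1] of 239 cells with Itgae and 33.6% [31.1 to 36.2] of 1344 cells without it in week 2. In week 3 the shares were 17.4% [13.1 to 22.4] of 276 cells and 19.3% [17.7 to 21.1] of 2145 cells. The intervals were apart in week 2 and overlapped in week 3, and cells of a library are not replicates. For Itgal it was week 3 in which the intervals were apart, with 21.3% of cells with and 21.6% of cells without Itgae in week 2, and 28.3% [23.0 to 34.0] and 18.7% [17.1 to 20.4] in week 3.

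Itga4 (ENSMUSG00000027009, chr2:79255426-79333123, plus strand), the alpha chain of α4β7 and α4β1, moved opposite to Itgae. Its level was 237 CPM in the naïve library, 7.19 and 117 CPM in the ta-non-activated pair, and 1.38 and 4.48 CPM in the ta-activated libraries. Both ta-activated libraries were below all 3 fresh ones, and the fresh libraries of weeks 2 and 3 were 16.2-fold apart. Itga4 was 5.22-fold lower [4.03 to 6.82] with activation in week 2 and 26.1-fold lower [22.8 to 29.8] in week 3, and the week 2 fresh cells were already 32.9-fold below the naïve cells. Between the groups the levels were 62.0 ± 77.5 and 2.93 ± 2.19 CPM (SD, n = 2 each), so the spread of the ta-non-activated pair exceeded the difference.

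The direction for Itga4 was kept in clusters 0 and 1, with levels of 248 CPM naïve, 6.62 and 120 CPM ta-non-activated and 1.34 and 5.09 CPM ta-activated, and ratios 4.95-fold and 23.5-fold lower with activation. In the week 3 fresh library the early thymocyte-like cluster (132 CPM) and clusters 0 and 1 (118 and 121 CPM) had Itga4 at similar levels. Within the naïve library the type 17 lymphocyte-like cluster 3, where Itgae was highest, had Itga4 at 62.4 CPM against 267 and 226 CPM in clusters 0 and 1. Cerkl, which overlaps exons of Itga4 on the opposite strand, was at 4.75 CPM or below in all 5 libraries.

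Itgb1 (ENSMUSG00000025809, chr8:128685654-128733200, plus strand), the beta chain shared by α1, α2, α4 and αv, was lower in the cultured cells. Its level was 129 CPM in the naïve library, 105 and 76.6 CPM in the ta-non-activated pair, and 29.6 and 46.3 CPM in the ta-activated libraries. Both ta-activated libraries were below the fresh ones, by 3.56-fold in week 2 and 1.65-fold [1.52 to 1.80] in week 3 against ta-non-activated. The ratios in clusters 0 and 1 were 4.08-fold and 1.54-fold lower, so the direction did not depend on the other clusters.

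Itgal (ENSMUSG00000030830, chr7:127296260-127335138, plus strand), the alpha chain of LFA-1, was higher after activation, as Itgae was, and by less. Its level was 130 CPM in the naïve library, 31.8 and 32.1 CPM in the ta-non-activated pair, and 116 and 122 CPM in the ta-activated libraries. The ta-activated libraries were at about the naïve level, 1.12-fold and 1.06-fold below it, and the ta-non-activated libraries were the low ones. The ratio with activation was 3.66-fold in week 2 and 3.80-fold in week 3 (119 ± 4.16 against 32.0 ± 0.238 CPM, SD, n = 2 each). Restricted to clusters 0 and 1 it was 4.23-fold and 2.22-fold, from 30.6 and 56.1 CPM in the fresh cells.

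At 2000 UMIs per cell, Itgal was found in 21.9% of naïve, 6.97% and 7.42% of ta-non-activated, and 20.3% and 20.7% of ta-activated cells. The ta-non-activated shares were the low ones, as for the CPM. In the 92 endothelial-like naïve cells the share was 8.70% (interval 3.83 to 16.4), with Itgal at 62.1 CPM.

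Itgb2 (ENSMUSG00000000290, chr10:77530252-77565708, plus strand), the beta chain of LFA-1, moved less than its partner. Its level was 77.7 CPM in the naïve library, 27.1 and 17.8 CPM in the ta-non-activated pair, and 41.1 and 36.1 CPM in the ta-activated libraries. Both ta-activated libraries were above the ta-non-activated ones and below the naïve one, with ratios of 1.52-fold and 2.03-fold with activation. Its ta-non-activated levels in clusters 0 and 1 were 27.6 and 59.8 CPM against 43.6 and 35.6 CPM, which gave 1.58-fold higher in week 2 and 1.68-fold lower in week 3. The early thymocyte-like cluster of week 3 had Itgb2 at 3.27 CPM.

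Itgav (ENSMUSG00000027087, chr2:83724397-83806916, plus strand) had its high level in the naïve library. It was at 450 CPM [442 to 457] there, 12.7 and 26.9 CPM in the ta-non-activated pair, and 28.7 and 36.8 CPM in the ta-activated libraries. All 4 libraries of tumour-bearing mice were thus 12.2-fold to 35.5-fold below the naïve one, and they differed from each other by far less. With activation Itgav was 2.27-fold higher in week 2 and 1.37-fold [1.20 to 1.56] higher in week 3. In clusters 0 and 1 the levels were 479, 14.8, 103, 33.9 and 41.9 CPM in the same order of libraries, and activation gave 2.30-fold higher in week 2 and 2.47-fold lower in week 3.

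Itgb3 (ENSMUSG00000020689, chr11:104608000-104670476, plus strand), the beta chain of αvβ3, had a similar order of libraries. Its level was 86.7 CPM in the naïve library, 4.45 and 10.6 CPM in the ta-non-activated pair, and 21.7 and 16.2 CPM in the ta-activated libraries. It was 19.5-fold and 8.14-fold lower in ta-non-activated than in naïve cells, and 4.87-fold and 1.52-fold higher with activation. In clusters 0 and 1 the ta-non-activated levels were 4.11 and 32.0 CPM against 20.2 and 16.6 CPM after activation, so the week 3 direction turned there, to 1.93-fold lower.

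Within the naïve library Itgav differed between the ILC2-like clusters 0 and 1 (236 and 752 CPM) and was at 138 CPM in the type 17 lymphocyte-like cluster, where Itgb3 was at 135 CPM against 63.5 and 94.4 CPM. In the week 3 fresh library Itgav was at 42.4 and 166 CPM in clusters 0 and 1 and at 6.34 CPM in the early thymocyte-like cluster.

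Itga2 (ENSMUSG00000015533, chr13:114833081-114932100, minus strand), the alpha chain of a collagen receptor, was low everywhere and highest after activation. Its level was 9.79 CPM in the naïve library, 1.29 and 0.426 CPM in the ta-non-activated pair (43 and 4 UMIs), and 18.9 and 14.2 CPM in the ta-activated libraries (1084 and 876 UMIs). Both ta-activated libraries were above the fresh ones, by 14.6-fold [10.8 to 20.3] and 33.3-fold [13.0 to 122] against ta-non-activated. Restricted to clusters 0 and 1 the ratio was 18.6-fold [11.2 to 33.5] in week 2, and 8.51-fold [2.90 to 41.4] in week 3, where the fresh cells had 3 UMIs. The spread over the ta-activated clusters 0 to 3 was 16.9 to 29.6 CPM in week 2 and 11.9 to 21.3 CPM in week 3, with cluster 3 the highest of the 4 in both weeks, as for Itgae. At 2000 UMIs per cell, Itga2 was found in 3.61% [2.96 to 4.37] and 2.61% [2.12 to 3.18] of ta-activated cells, 1.63% of naïve cells, and 0.0553% and 0.201% of ta-non-activated cells. The endothelial-like naïve cells had Itga2 at 25.2 CPM and in 5.43% of cells (interval 1.79 to 12.2).

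Itga1 (ENSMUSG00000042284, chr13:114953096-115101964, minus strand), the other collagen receptor chain of the list, was close to the detection limit outside the naïve library. It was at 7.81 CPM in the naïve library (253 UMIs), 0.120 and 0.639 CPM in the ta-non-activated pair (4 and 6 UMIs), and 0.401 and 0.0485 CPM in the ta-activated libraries (23 and 3 UMIs). Its naïve UMIs came mainly from cells other than ILC2-like ones. The NK or ILC1-like cluster had 94 UMIs at 64.3 CPM [52.0 to 78.7]. The ILC2-like clusters 0 and 1 together had 33 UMIs at 1.24 CPM, of which cluster 1 had 2 UMIs at 0.160 CPM. The endothelial-like cells, which were found in a separate clustering, had Itga1 at 245 CPM. Gm49395 shares exons with Itga1 on the same strand, so reads of the shared exons may not have been counted for Itga1.

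Read as a group, the 10 members split in the comparison with activation. Of the 8 that reached 20 CPM in at least 1 of the 4 libraries of tumour-bearing mice, 2 were at least 2-fold higher in both weeks (Itgae and Itgal; background 7.55% of 6608 genes) and 1 was at least 2-fold lower in both (Itga4; background 3.92%). Itga2 passed 2-fold in both weeks but stayed under 20 CPM. The same 3 genes were past 2-fold in clusters 0 and 1, where the background was 7.54% and 1.77%. The list was chosen with this contrast in view, so nothing is read from these shares.

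By single week the split was wider. In week 2, Itgae, Itgb7, Itgal, Itgav and Itgb3 were 2-fold higher (5 of 8; background 15.2%) and Itga4 and Itgb1 2-fold lower (background 10.7%). In week 3, Itgae and Itgal were higher (background 19.3%) and Itga4 lower (background 16.0%). Within clusters 0 and 1 the same 2 were higher in week 3 (background 22.0%) and Itgb7 and Itgav were lower as well as Itga4 (3 of 8; background 10.1%). The median log2 ratio of the counted members was 1.19 in week 2 and 0.50 in week 3, beside 0.06 and 0.01 for all genes counted. The medians in clusters 0 and 1 were 1.16 and -0.82, beside 0.04 and 0.28.

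**Figure D4:**
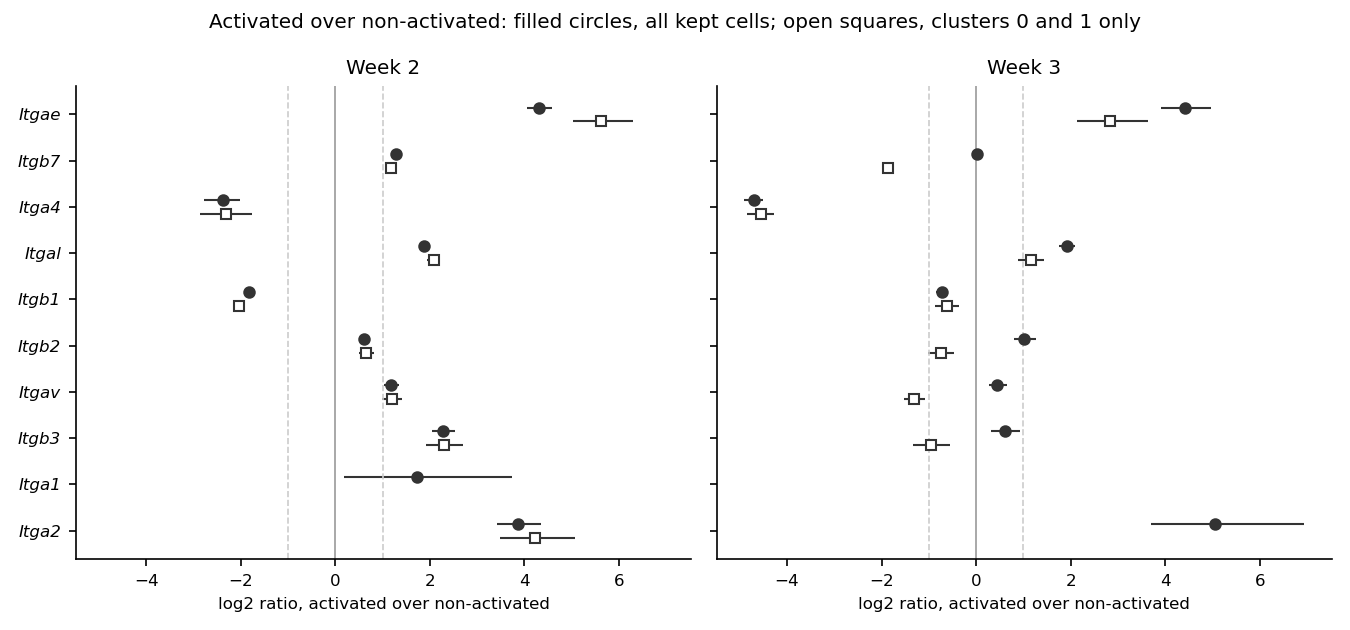
Log2 ratio of ta-activated to ta-non-activated CPM of each integrin gene in week 2 and week 3, for all kept cells and for clusters 0 and 1 alone, with 95% intervals for counting error and dashed lines at 2-fold; ratios with 3 UMIs or fewer on a side are not drawn. Itgae and Itgal lie above 2-fold and Itga4 below it in both weeks and both sets of cells, while Itgb7, Itgb2, Itgav and Itgb3 lie above 0 in week 2 and below it in week 3 in clusters 0 and 1.

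The test with replicates, 2 ta-activated against 2 ta-non-activated libraries on counts summed per library, gave calls that depended on the tool. edgeR's quasi-likelihood test called 0 of 12643 genes at an adjusted p of 0.05 (0.0%), with 2120 genes (16.8%) at an unadjusted p under 0.05, and DESeq2 on the same counts called 1041 (8.23%), among them 4 of the 10 members: Itgae, Itgal and Itga2 as higher and Itga4 as lower. edgeR without the week 2 ta-non-activated library called 1646 genes (12.1%) and the same 4 members, and without the week 3 one it called 513 (3.85%) with Itgae and Itga2. The members were chosen on this contrast, so nothing is read from these counts. For 1 gene at a time, an exact two-sided permutation test of 2 against 2 cannot go below p = 0.333. The fitted log2 difference was 4.24 for Itgae, 4.01 for Itga2, 1.79 for Itgal and -4.39 for Itga4, each a description here.

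Against the naïve library, which has no replicate and so no test, most members were lower in fresh cells of tumour-bearing mice. Of the 7 members at 20 CPM or more in at least 1 of the 3 libraries, 6 were at least 2-fold lower in both weeks (Itgb7, Itga4, Itgal, Itgb2, Itgav and Itgb3; background 23.4% of 7030 genes) and 0 were higher (background 12.8%). Itgb1 was 1.22-fold and 1.68-fold lower. In clusters 0 and 1 the count was 4 of 7 (Itga4, Itgal, Itgav and Itgb3; background 20.6%) with 0 higher (background 1.31%), since Itgb7 and Itgb2 in week 3 were near their naïve levels. The members' median log2 ratio was -2.00 and -1.98, beside -0.18 and -0.08 for all genes.

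The software version moves with this comparison. The members have 13180 to 130270 bases of intron, and genes in that range had a median log2 ratio of naïve over ta-non-activated of 0.63 in week 2 and 0.48 in week 3, beside 0.21 and 0.10 for all genes. The part of this in the lower integrin levels was not tested. The comparison of ta-activated with ta-non-activated libraries used 1 version.

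The other integrin chains were low. None of the other 12 alpha and 4 beta chain genes reached 20 CPM in any library of the comparisons, the alpha chain Itga6 being at 16.9, 4.84, 9.47, 8.42 and 7.05 CPM in the order naïve, ta-non-activated weeks 2 and 3, ta-activated weeks 2 and 3. Of 6 integrin ligand genes carried on cells, 2 reached 20 CPM and 0 passed 2-fold in both weeks of activation. Cdh1, the E-cadherin bound by αEβ7, was at 2.22, 0.0301, 4.36, 0.314 and 0.0485 CPM in the same order, so the sorted cells themselves held little of it. Of 8 matrix ligand genes, 0 reached 20 CPM in the 4 libraries compared.

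Genes that act beside integrins were counted in the same way, with the same backgrounds of 7.55% and 3.92%. Of 25 genes of integrin activation and linkage to actin, 18 were counted and 1 was higher with activation in both weeks: Ptk2b, a kinase of the focal adhesion kinase family, at 27.1 and 24.0 CPM in ta-non-activated and 81.4 and 125 CPM in ta-activated libraries. Of 18 TGF-β pathway genes, 9 were counted. The receptor gene Tgfbr2 went from 26.1 and 26.0 CPM to 62.7 and 90.7 CPM, with 236 CPM in the naïve library, and Skil, an inhibitor of SMAD signalling, went from 52.8 and 92.4 CPM to 17 and 27.0 CPM.

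Of 15 genes linked to residence in or exit from tissue, 11 were counted and 2 were higher in both weeks. Rgs1, a regulator of chemokine receptor signalling, went from 259 and 241 to 1199 and 837 CPM. The transcription factor gene Prdm1 went from 15.6 and 5.64 to 40.3 and 31.9 CPM. In clusters 0 and 1 only Ptk2b and Skil of these 4 lists still passed 2-fold in both weeks. These lists describe single genes that moved with activation, Skil in the direction opposite to Itgae, and no list was tested.

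By profile over the 5 libraries, the 5 genes most like Itgae among 7419 genes were Trim30d, 9930111J21Rik2, Tmem140, Ifi209 and Fam213a. The root mean square difference of their centred log2(CPM + 1) profiles from that of Itgae was 0.33 to 0.41. Trim30d, for one, was at 19.6, 5.87, 6.49, 65.3 and 109 CPM in the order above, so naïve was in the middle, both ta-non-activated libraries were low and both ta-activated libraries were high, as for Itgae. With 5 libraries, such likeness is a description of levels, and it was measured over all kept cells. In clusters 0 and 1 the naïve Itgae level (4.07 CPM) lay between those of the ta-non-activated pair (1.41 and 8.39 CPM).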

How the data were processed

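Single-cell RNA of sorted lung ILC2s was measured in 5 libraries (10x Genomics 3' chemistry). The matrices deposited by the authors hold UMI counts, not normalized, from Cell Ranger (version 6.0.0 per the header of the naïve matrix, 3.0.2 per the others; the submitters' processing notes name 3.0.2, Seurat 3 and GRCm38). The members and the gene lists were chosen with earlier results of these data known.

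Barcodes needed 200 or more genes and less than 5% mitochondrial counts, using the 27726 common genes; doublets were not called. Named genes were the 10 members, up to 4 genes per list that moved 2-fold in both weeks among those with at least 20 CPM, the 5 genes most like Itgae, and markers that check a label. Clusters came from Seurat 5.3.0 (R 4.3.3; canonical correlation anchors, 2000 variable genes, 30 dimensions, G2/M minus S score regressed out, resolution 0.2) and were named from 14 marker lists. Counts were summed per library and fitted with edgeR 4.0.16 (filterByExpr, TMM, quasi-likelihood F test, Benjamini-Hochberg), which was tested on simulated data; libraries of a group are separate pools of mice of different weeks, so p-values measure only the spread between these samples. Ratios have conditional binomial and levels Poisson 95% intervals, computed in Python 3.11.15 (numpy 2.4.6, scipy 1.17.1, pandas 2.3.3; figures with matplotlib 3.10.9). Positions are from GENCODE on GRCm38. Alternatives were DESeq2 1.42.0, no TMM factors, TMM factors in the ratios, the week as a replicate block, every gene with a count, all 5 libraries in 1 fit, all barcodes, a mitochondrial limit of 10%, ILC2-like or proliferating clusters, no cells in the top 6% of UMIs, means over cells, no thinning or 1000 UMIs, a resolution of 0.4, no integration and each library left out. Clusters 0 and 1 alone, and ILC2-like clusters at 0.4 for the ratios, were added after the data had been seen.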

Additional observations from a re-analysis of the deposited data

Results flagged for a closer look

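In 5 cases the log2 ratio of ta-activated to ta-non-activated cells had opposite signs in the weeks, with 1 library on each side of each ratio, and the difference between the weeks was not tested. In clusters 0 and 1 the ratio of Itgb7 was 1.18 in week 2 and -1.87 in week 3, a difference of 3.05. Itgav went from 1.20 to -1.30, a difference of 2.50, and Itgb3 from 2.30 to -0.95, a difference of 3.24. For Itgb2 the values were 0.66 and -0.75, a difference of 1.41. In these clusters the CPM of all 4 genes was higher in fresh cells of week 3 than in fresh cells of week 2. The ratios of CPM were 4.28-fold (Itgb7), 6.99-fold (Itgav), 7.78-fold (Itgb3) and 2.16-fold (Itgb2). The ta-activated libraries of the weeks were 1.22-fold to 1.93-fold apart. The fresh week 3 cells were far shallower, with median UMIs of 2576 and 3184 in clusters 0 and 1 against 11942 and 14284.5 in week 2. A higher CPM there need not mean more UMIs of a gene per cell. Itga1 over all kept cells had 1.74 and -3.72, a difference of 5.45, from as few as 3 UMIs.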

How the results depend on the processing

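Itgae and Itgal were higher and Itga4 was lower after activation in both weeks under all 8 other settings of the ratios. The setting that moved most was the choice of clusters. Of 38 ratios, 6 changed direction in clusters 0 and 1 and 6 in ILC2-like clusters at a resolution of 0.4, and 2 of 38 with ILC2-like or proliferating clusters. Of 40 ratios, 2 changed direction with means over cells, 1 with TMM factors and 1 without the top 6% of cells by UMIs. Among ratios past 2-fold, the log2 ratio of ta-non-activated to naïve in week 3 turned to 1.04 for Itgae (clusters 0 and 1) and to 0.22 and 0.21 for Itgb7 (clusters 0 and 1, then resolution 0.4). The activation ratio of Itgb2 in week 3 turned to -0.75 and -0.74. Itgae in ILC2-like clusters was at 3.30 CPM in fresh week 3 and 74.0 CPM in ta-activated week 2 cells at a resolution of 0.4, and at 3.10 CPM in fresh week 2 and 82.4 CPM in ta-activated week 2 cells without integration. The cause was not tested.

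Shares follow depth by construction. Without thinning the Itgae shares were 4.15% naïve, 3.68% and 1.75% ta-non-activated, and 53.0% and 43.4% ta-activated. At 1000 UMIs they were 1.07% naïve, 0.275% ta-non-activated (given for week 2 only), and 9.48% and 7.33% ta-activated. At 2000 UMIs the share was 0.663% of naïve ILC2-like or proliferating cells.

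The count of genes called by edgeR was 0 with all libraries. DESeq2 called 1041. Leaving out 1 library gave 0 to 1646 calls: 1646 without the week 2 and 513 without the week 3 ta-non-activated library, where the lone library is assumed to vary like the ta-activated pair. With the week as a replicate block, edgeR called 0. Deviations of the same week from the group means correlated at -0.05 over 6608 genes. With 2 libraries per group a deviation only restates the difference between the weeks, and the fresh pair differed in cell types. The value therefore cannot show whether libraries of the same week are paired. The 2 libraries per group and the 4 to 32 UMIs of Itgae, Itga1 and Itga2 in the fresh week 3 library limit these values.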

Other observations

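Among ta-activated cells of clusters 0 and 1 at 2000 UMIs, other genes differed in share between cells with and without an Itgae UMI. The 16 genes with the largest differences in week 2, 8 in each direction, were read in week 3, with no test, since cells of a library are not replicates. In week 3 the difference had the same direction and at least 50% of its week 2 size for 5 (Mndal, Cysltr1, Ptprcap, Il5 and Pgam1). It had the same direction but a smaller size for 7, and the opposite direction for 4 (Clta, Ifit1, Tax1bp1 and Ssr3). The genes were picked as the extremes of week 2, so smaller differences in week 3 follow in part from the choice. No share over all genes stands beside these counts, and nothing is read from them. Il5, the eosinophil growth factor gene, was found in 51.5% of cells with and 62.9% of cells without Itgae in week 2, and in 51.1% and 62.7% in week 3. Ptprcap, which encodes a partner of the phosphatase CD45, was found in 79.5% and 66.9% in week 2 and 79.3% and 64.1% in week 3. Cysltr1, a cysteinyl leukotriene receptor gene, was found in 79.1% and 66.3%, then 67.8% and 56.3%. The glycolysis gene Pgam1 was found in 44.8% and 56.1%, then 41.3% and 52.9%. Hlf, a transcription factor gene with the largest difference in week 2, was among the 7 that shrank, with 41.4% and 25.7% in week 2 and 49.3% and 48.0% in week 3.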
